A study of Sus scrofa with 19 samples.

Results

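The 7 genes described here encode collagen chains and companion proteins of the fibroblast matrix: COL1A1, COL1A2, COL3A1, COL5A2, COL6A3, MFAP5 and POSTN. They were measured by the probe sets whose only symbol in the array annotation is 1 of these names, which gave 10 of the 27558 probe sets on the array. COL6A3 has 3 of them, COL1A1 has 2, and each other gene has 1. Adrenal glands of 19 male piglets, 1 piglet a sow, were measured on 1-colour Affymetrix arrays, and the values are log2 signals. The sows ate a fish oil, microalgae or control diet from gestation day 75 and were given lipopolysaccharide (LPS, a bacterial cell wall component that provokes inflammation) or saline on gestation day 112. Fish oil was represented by 4 piglets with maternal LPS (numbers 10, 19, 20 and 24) and 4 with maternal saline (9, 11, 13 and 18). Microalgae was represented by 2 with maternal LPS (7 and 23) and 3 with maternal saline (12, 15 and 22). The control diet was represented by 3 with maternal LPS (6, 16 and 17) and 3 with maternal saline (8, 14 and 21). All piglets were weaned at 21 days, received LPS themselves at 28 days and were killed 2 hours afterwards, so that acute challenge is common to all 6 groups and no gland of an unchallenged piglet was measured.

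Fibroblasts build the collagen scaffold of an organ, and in the adrenal gland they lie in the capsule, in the septa that run inward from it and around vessels. Type I collagen is a heterotrimer of the COL1A1 and COL1A2 chains, type III collagen is a homotrimer of COL3A1, and COL5A2 is a chain of type V collagen, which sits within type I fibrils and limits their width. COL6A3 is a chain of the beaded filaments of type VI collagen around cells, MFAP5 belongs to the microfibrils on which elastic fibres form, and POSTN (periostin) is a secreted matricellular protein that binds collagen and is produced in remodelling tissue. In the RefSeq annotation of Sscrofa11.1, COL3A1, COL5A2 and COL6A3 lie on pig chromosome 15, with COL3A1 and COL5A2 next to each other. COL1A1 lies on chromosome 12, COL1A2 on chromosome 9, MFAP5 on chromosome 5 and POSTN on chromosome 11.

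The tissue label was borne out by adrenal cortex genes. The 7 such genes measured averaged 8.81 to 9.74 log2 in every gland, and CYP21A2, a steroid hydroxylase, averaged 11.34 log2 in fish oil and 11.04 in control offspring. Array medians ran from 4.38 to 4.52 log2, and the lowest correlation between any 2 arrays was 0.934, between those of fish oil piglets 20 and 24. The array of piglet 24 also had the narrowest interquartile range, 2.27 log2, and that of control piglet 6 the next narrowest, 2.39. Precision is limited by the number of arrays: over all probe sets tested, the standard error (SE) of the fish oil difference had a median of 0.141 log2. Fewer fibroblasts in a gland and less of a transcript in each fibroblast cannot be told apart in whole tissue.

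COL1A1 and COL1A2, the type I collagen chains, were among the most variable transcripts between glands. COL1A1 read 8.58, 7.50, 8.0 and 6.58 log2 in fish oil offspring with maternal LPS, and 6.43, 7.11, 6.97 and 7.46 in those with maternal saline. It read 9.07 and 8.0 in microalgae offspring with maternal LPS, and 7.92, 8.14 and 8.38 with saline. Control offspring had 6.34, 9.13 and 9.16 with maternal LPS, and 9.76, 9.0 and 6.96 with saline. The 4 highest of the control values exceeded all 8 of the fish oil values, while control piglet 21 lay among them and piglet 6 below them, so the 2 diets overlapped. Ordered by group mean, COL1A1 stood highest in control with saline (8.57 ± 1.45, SD, n = 3), then microalgae with LPS (8.54 ± 0.754, n = 2), control with LPS (8.21 ± 1.62, n = 3), microalgae with saline (8.15 ± 0.232, n = 3), fish oil with LPS (7.67 ± 0.845, n = 4) and fish oil with saline (7.0 ± 0.427, n = 4). Each neighbouring pair in that order lay within the SD of at least 1 of its groups. The gap between the lowest gland (piglet 6) and the highest (piglet 8) was 10.7-fold on the linear scale.

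The second COL1A1 probe set ordered the glands in a similar but not identical way, on a narrower scale. It ran from 5.53 to 6.60 log2 in fish oil, 6.38 to 6.58 in microalgae and 5.55 to 7.98 in control offspring, and its Pearson correlation with the first was 0.93 over 19 piglets. COL1A2 read 7.35, 6.41, 6.93 and 5.71 log2 in fish oil offspring with maternal LPS and 5.72, 6.50, 6.19 and 6.28 with saline. It read 7.21 and 6.94 in microalgae with LPS and 6.92, 7.06 and 7.33 with saline. In control offspring it read 6.24, 7.48 and 7.87 with LPS, and 8.83, 7.39 and 6.09 with saline. Piglet 8 was again the highest gland, and control piglets 6 and 21 again lay among the fish oil values.

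COL3A1, the type III chain that accompanies type I collagen in soft organs, followed the same glands. It read 6.90, 6.45, 6.75 and 5.47 log2 in fish oil offspring with maternal LPS and 5.99, 5.82, 6.49 and 6.08 with saline. It read 6.67 and 6.77 in microalgae with LPS and 6.69, 6.96 and 7.44 with saline. Control offspring had 6.24, 7.34 and 7.60 with LPS, and 8.13, 7.03 and 6.15 with saline. The 8 fish oil values had a median of 6.27, the 5 microalgae values 6.77 and the 6 control values 7.19, with overlap between fish oil and control.

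COL5A2 moved over a much smaller range, 1.9-fold between the extreme glands, and it separated the diets more cleanly. It read 4.43, 4.47, 4.58 and 4.47 log2 in fish oil offspring with maternal LPS and 4.44, 4.31, 4.33 and 4.44 with saline. It read 4.71 and 4.51 in microalgae with LPS and 4.69, 4.59 and 4.57 with saline. Control offspring had 4.73, 4.67 and 5.16 with LPS, and 5.24, 4.80 and 4.58 with saline. Every fish oil value lay below every control value, but only just: the highest fish oil gland (piglet 20, 4.5772) was 0.00073 log2 under the lowest control gland (piglet 21, 4.5780), and 5 of the 6 control glands were clear of the fish oil range.

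COL6A3 was read by 3 probe sets. The first read 4.75, 5.01, 4.94 and 4.89 log2 in fish oil offspring with maternal LPS and 4.16, 4.80, 4.97 and 4.61 with saline. It read 5.46 and 5.09 in microalgae with LPS and 5.06, 5.01 and 5.13 with saline. Control offspring had 4.99, 5.42 and 5.12 with LPS, and 5.62, 5.44 and 4.93 with saline. Fish oil glands filled the low end and reached 5.01, the level of the lowest microalgae gland and above the lowest control gland. The other 2 probe sets (15241906 and 15241918) had medians of 4.74 and 4.5 log2 in fish oil, 5.05 and 4.78 in microalgae and 5.41 and 4.96 in control offspring. Correlations between the 3 probe sets over 19 piglets were 0.62 to 0.77.

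MFAP5, the microfibril protein, spanned 13.2-fold between glands. It read 4.57, 4.82, 4.99 and 3.43 log2 in fish oil offspring with maternal LPS and 2.64, 3.82, 3.36 and 2.97 with saline. It read 4.68 and 3.73 in microalgae with LPS and 4.68, 4.86 and 6.36 with saline. Control offspring had 3.89, 5.14 and 5.98 with LPS, and 5.35, 4.53 and 3.01 with saline. Fish oil glands with maternal saline were the lowest group and overlapped the other groups at control piglet 21, fish oil piglet 24 and microalgae piglet 23. Their mean, 3.19 log2, lies under 3.23, the level below which probe sets were left out of testing, so the size of differences that rest on this group is uncertain.

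POSTN was the most variable of the genes, 17.7-fold between extreme glands, and it had its own pattern. It read 8.03, 7.23, 7.67 and 5.93 log2 in fish oil offspring with maternal LPS and 6.31, 7.11, 5.89 and 8.44 with saline. It read 6.44 and 4.33 in microalgae with LPS and 6.93, 7.52 and 8.28 with saline. Control offspring had 4.80, 7.54 and 4.29 with LPS, and 8.16, 7.41 and 7.16 with saline. The 3 lowest glands, piglets 17, 23 and 6, all came from LPS-treated sows on the microalgae or control diet. The next gland up was fish oil piglet 13 at 5.89, leaving a gap of more than 1 log2 with no gland in it.

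**Figure D1:**
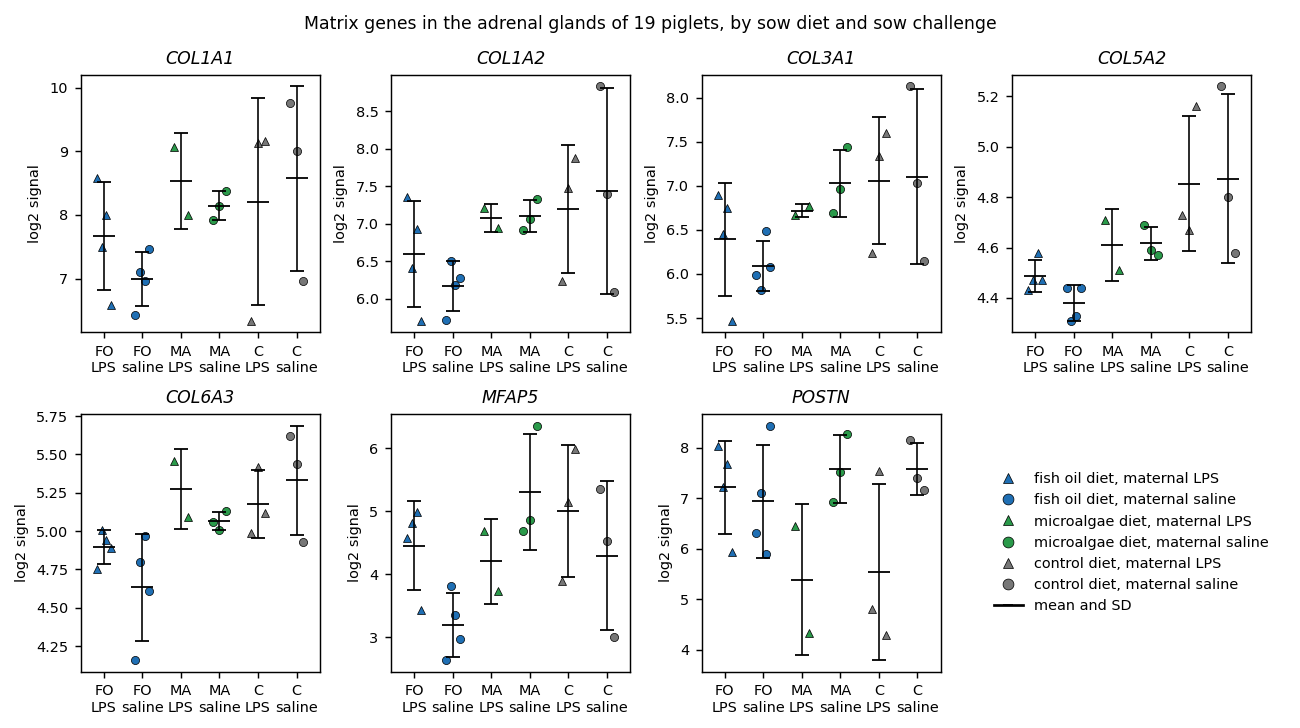
Log2 signal of the 7 genes (1 panel each, vertical axis, each with its own range) in 19 piglets by group (horizontal axis, FO fish oil, MA microalgae, C control diet, with maternal LPS or saline). Points are piglets and bars are group means with SD, for the probe set with the highest mean of each gene. COL5A2 in fish oil offspring stays between 4.31 and 4.58, below all control values, and the 3 POSTN values under 5 belong to maternal LPS groups off fish oil.

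The spread between piglets of 1 group was wide for most of these genes. The SD within groups was 0.993 log2 for COL1A1, 0.742 for COL1A2, 0.607 for COL3A1, 0.853 for MFAP5 and 1.11 for POSTN, against a median of 0.264 over all probe sets tested. COL1A1 exceeded 99.3% of probe sets tested in this measure, POSTN 99.6% and MFAP5 98.6%. COL5A2, at 0.18 log2, exceeded 14.3%. For COL1A1, COL1A2, COL3A1, COL5A2 and MFAP5 the control groups had the widest spread: the SD of COL1A2 was 0.851 with maternal LPS and 1.37 with saline in control offspring, against 0.187 and 0.206 in microalgae offspring. POSTN differed in this, with its smallest SD, 0.522, in control offspring with saline and its largest, 1.75, in those with LPS.

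Maternal fish oil was compared with the control diet over both maternal challenges, 8 piglets against 6, to ask whether the sow's supplement altered the offspring's gland. In limma's linear model with Benjamini-Hochberg adjustment, 0 of 20668 probe sets passed an adjusted p of 0.05 in this comparison (0% called), and 555 (2.69%) had an unadjusted p under 0.05. The 7 genes were therefore not called, and all 10 probe sets had an adjusted p of 1. Unadjusted, 5 of the 7 genes were lower at p under 0.05, where 1.29% of all probe sets tested were. The median difference over the 7 genes was -0.83 log2, against 0.00125 over all probe sets tested. These genes vary together between glands, as described below, so their count is not one of independent observations. They were also chosen with earlier results of these data known, so the shares over all probe sets are given for scale only.

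COL1A1, by its first probe set, and COL1A2 had the largest differences. COL1A1 averaged 7.33 log2 in fish oil and 8.39 in control offspring, a difference of -1.06 ± 0.466 (SE, with limma's 95% interval, not adjusted for the number of probe sets, from -2.04 to -0.08), and its second probe set differed by -0.75 ± 0.292 (-1.36 to -0.13). COL1A2 averaged 6.39 in fish oil and 7.32 in control offspring, a difference of -0.93 ± 0.351 (-1.67 to -0.19). COL3A1 averaged 6.25 in fish oil and 7.08 in control offspring, a difference of -0.84 ± 0.29 (interval -1.45 to -0.22). On the linear scale these are 0.479, 0.524 and 0.56 of the control level.

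The minor fibrillar chain and type VI collagen had smaller differences with smaller errors. COL5A2 averaged 4.44 log2 in fish oil and 4.86 in control offspring, a difference of -0.43 ± 0.108 (interval -0.65 to -0.20), and ranked 7 of 20668 by its unadjusted p. It was the only one of the 10 probe sets with every fish oil value below every control value, which held for 4 probe sets of all those tested (0.0194%) and rests here on the narrow margin given above. The 3 probe sets of COL6A3 differed by -0.49 ± 0.136, -0.63 ± 0.2 and -0.39 ± 0.197, and the interval of the last of them, -0.81 to 0.02, held 0. MFAP5 differed by -0.83 ± 0.401, with an interval of -1.67 to 0.02. POSTN was the one gene on the other side, averaging 7.08 in fish oil and 6.56 in control offspring, a difference of 0.52 ± 0.521 (interval -0.58 to 1.62).

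One control gland carried a large part of these differences. Without piglet 8, the highest gland for all 5 collagens, the fish oil difference was -0.58 for COL1A2, -0.76 and -0.48 for the COL1A1 probe sets, -0.58 for COL3A1, -0.33 for COL5A2, -0.57 for MFAP5 and -0.43 and -0.24 for COL6A3 probe sets 15241906 and 15241918. Removing a low control gland did the opposite: COL1A1 differed by -1.53 without piglet 6, and COL1A2 by -1.27 without piglet 21. The POSTN difference was 0.21 without control piglet 17 and 1.02 without control piglet 16. The sign held for all 10 probe sets without any single piglet.

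**Figure D2:**
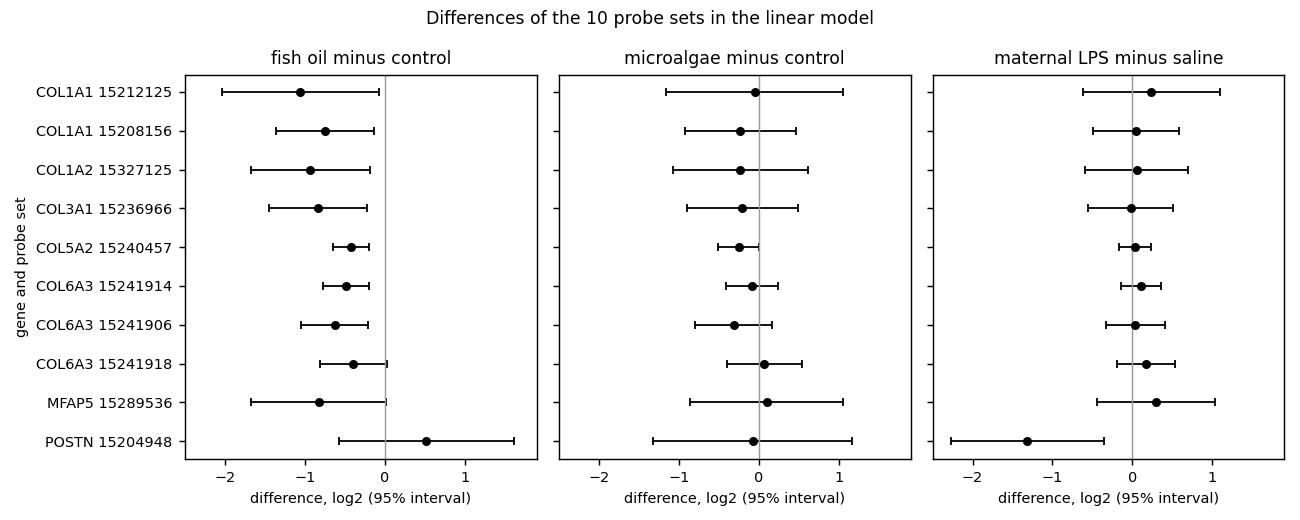
Differences in log2 signal (horizontal axis) with limma's 95% intervals for the 10 probe sets (vertical axis, gene and probe set), for fish oil minus control, microalgae minus control and maternal LPS minus saline. In the left panel every collagen probe set lies below 0 while POSTN is at 0.52, and in the right panel POSTN alone lies away from 0, at -1.32.

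Microalgae, the other omega-3 source, was set against the same 6 control piglets, and most of its differences for these genes were nearer 0. The limma model called 0 of 20668 probe sets (0%), with 340 (1.65%) at an unadjusted p under 0.05. None of the 7 genes was among the lower ones, where 0.789% of all probe sets tested were. COL5A2 came nearest, averaging 4.61 log2 in microalgae and 4.86 in control offspring, a difference of -0.25 ± 0.122 (interval -0.50 to 0.01). COL1A1 differed by -0.05 ± 0.529, COL1A2 by -0.23 ± 0.399 and COL3A1 by -0.20 ± 0.329, with a 95% interval for COL1A1 of -1.16 to 1.06 that still holds the fish oil difference. MFAP5 was at 0.10 ± 0.455 and POSTN at -0.08 ± 0.591.

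Set directly against microalgae, fish oil offspring had lower values for 6 of the 7 genes, with a median difference of -0.63 log2 and 0 of 20668 probe sets called (0%, and 590 or 2.85% at an unadjusted p under 0.05). Over all probe sets tested, 51.3% of these differences were below 0. COL6A3 (first probe set) averaged 4.77 log2 in fish oil and 5.17 in microalgae offspring, a difference of -0.40 ± 0.145 (interval -0.71 to -0.10). MFAP5 averaged 3.82 in fish oil and 4.75 in microalgae offspring, a difference of -0.93 ± 0.429 (interval -1.83 to -0.03). These 2 genes were lower at an unadjusted p under 0.05, where 1.3% of all probe sets tested were, and both had an adjusted p of 1. COL6A3 probe set 15241918 differed by -0.46 ± 0.211, COL1A1 by -1.01 ± 0.498 and COL3A1 by -0.63 ± 0.31, and the intervals of COL1A1 (-2.06 to 0.04) and COL3A1 (-1.28 to 0.02) held 0. So did the interval of the remaining COL6A3 probe set, 15241906 (-0.315 ± 0.214, -0.765 to 0.135). The second COL1A1 probe set differed by -0.52 ± 0.312, COL1A2 by -0.70 ± 0.376 and COL5A2 by -0.18 ± 0.115, again with intervals that held 0.

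Maternal LPS was compared with maternal saline over the 3 diets, 9 piglets against 10, and here POSTN stood apart from the other genes. POSTN averaged 6.05 log2 after maternal LPS and 7.36 after saline as the mean of the diets, a difference of -1.32 ± 0.455 (limma adjusted p = 0.605, interval -2.27 to -0.36), which did not pass. It was lower at an unadjusted p under 0.05 together with 3.59% of all probe sets tested (6.97% in either direction), and limma called 2 of 20668 probe sets at an adjusted p under 0.05 (0.00968%), neither of them of these genes, a count that ran from 0 to 12 when 1 piglet was left out. The other 6 genes had differences from -0.02 (COL3A1) to 0.29 (MFAP5). COL1A1 averaged 8.14 after maternal LPS and 7.91 after saline, a difference of 0.23 ± 0.407.

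By group means, POSTN was lower after maternal LPS in microalgae and control offspring and not in fish oil offspring, a contrast that did not pass its test. Fish oil offspring averaged 7.22 ± 0.921 with maternal LPS and 6.94 ± 1.12 with saline (SD, n = 4 each). Microalgae offspring averaged 5.39 ± 1.49 with maternal LPS (n = 2) and 7.58 ± 0.676 with saline (n = 3), and control offspring 5.54 ± 1.75 and 7.58 ± 0.522 (n = 3 each). The interaction, the maternal LPS difference in fish oil minus that in control offspring, was 2.31 ± 1.04 (limma adjusted p = 1, interval 0.12 to 4.51), and ran from 1.69 to 3.31 without any single piglet. For this interaction limma called 0 of 20668 probe sets (0%, and 545 or 2.64% at an unadjusted p under 0.05), and 1.04% of all probe sets tested were positive at an unadjusted p under 0.05. All 7 genes had a positive value, from 0.12 for COL5A2 to POSTN's 2.31, where 50.3% of all probe sets tested were below 0, and POSTN was the 1 gene with an unadjusted p under 0.05. The sign was not stable for COL1A2, COL3A1, COL5A2 and MFAP5. Without control piglet 8 the value was -0.032 for COL1A2, -0.17 for COL3A1 and -0.060 for COL5A2, and without control piglet 6 it was -0.0064 for MFAP5. Without any single piglet it stayed positive for both COL1A1 probe sets (0.093 to 1.84 and 0.20 to 1.37). It also did so for the first COL6A3 probe set (0.26 to 0.62), but not for the other COL6A3 probe sets. The array interquartile range moved with POSTN over the 19 piglets (r = 0.55). With that range as a covariate the maternal LPS difference of POSTN was -0.98 and its fish oil interaction 2.26.

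MFAP5 had the largest interaction with microalgae, though it did not pass. Microalgae offspring averaged 4.21 ± 0.673 with maternal LPS and 5.30 ± 0.925 with saline, while control offspring averaged 5.01 ± 1.05 and 4.30 ± 1.19. The interaction was -1.80 ± 0.91 (limma adjusted p = 0.858), in a comparison where 0 of 20668 probe sets were called (0%) and 1118 (5.41%) had an unadjusted p under 0.05. It was -1.16 without control piglet 21 and -2.35 without control piglet 6. In fish oil offspring MFAP5 averaged 4.45 ± 0.705 with maternal LPS and 3.19 ± 0.509 with saline (SD, n = 4 each).

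Between glands, 6 of the genes went up and down together, and POSTN passed the test with none of them. Over the 19 piglets, the 15 pairs without POSTN had Pearson correlations of 0.57 to 0.94 and Spearman correlations of 0.54 to 0.96. All 15 passed a two-sided permutation test adjusted over the 21 pairs (highest adjusted p = 0.0133 for Pearson and 0.0265 for Spearman). The permutation took the 19 glands without regard to group. Pairs of other genes were not tested, so the share of all gene pairs that would pass on these arrays is not known. The 2 type I chains had r = 0.94 and rho = 0.96 (permutation p = 1e-05, the smallest that 100000 resamples can give, adjusted p = 7e-05). COL1A2 with COL3A1 had r = 0.94, and COL1A1 with COL3A1 had r = 0.87. The SD of the log2 ratio of COL1A2 to COL3A1 over glands was 0.282, against an SD of 0.779 for COL1A2 itself.

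The weaker ties were those of COL5A2, COL6A3 and MFAP5. MFAP5 had r = 0.81 with COL3A1 and 0.79 with COL1A2 (adjusted permutation p = 0.00021 and 0.000157). COL5A2 with MFAP5 had the lowest correlation of the 15, r = 0.57 (adjusted permutation p = 0.0133), and without control piglet 17 its r was 0.47 and did not pass. Leaving out the 2 piglets farthest from the median of the first gene, the 15 pairs kept correlations of 0.42 to 0.96. On deviations from the 6 group means they were 0.28 (COL5A2 with COL6A3, from 0.64) to 0.93. These values within groups were all positive but were not tested.

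POSTN had r from -0.13 (with COL5A2) to 0.27 (with COL1A1), and 0 of its 6 pairs passed (lowest adjusted permutation p = 0.336). On deviations from the group means its correlations were higher, up to 0.57 with COL1A1 and 0.44 with COL1A2, but -0.03 with COL5A2. Its glands fall in 2 sets, the 3 under 5 log2 and the other 16. Over those 16, a choice made after its values were seen, its correlations were 0.19 (COL6A3) to 0.59 (COL1A2). The 3 low glands were not low for the other genes as a set: piglets 17, 23 and 6 ranked 2, 11 and 13 of 19 for the mean of the other 6 genes.

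**Figure D3:**
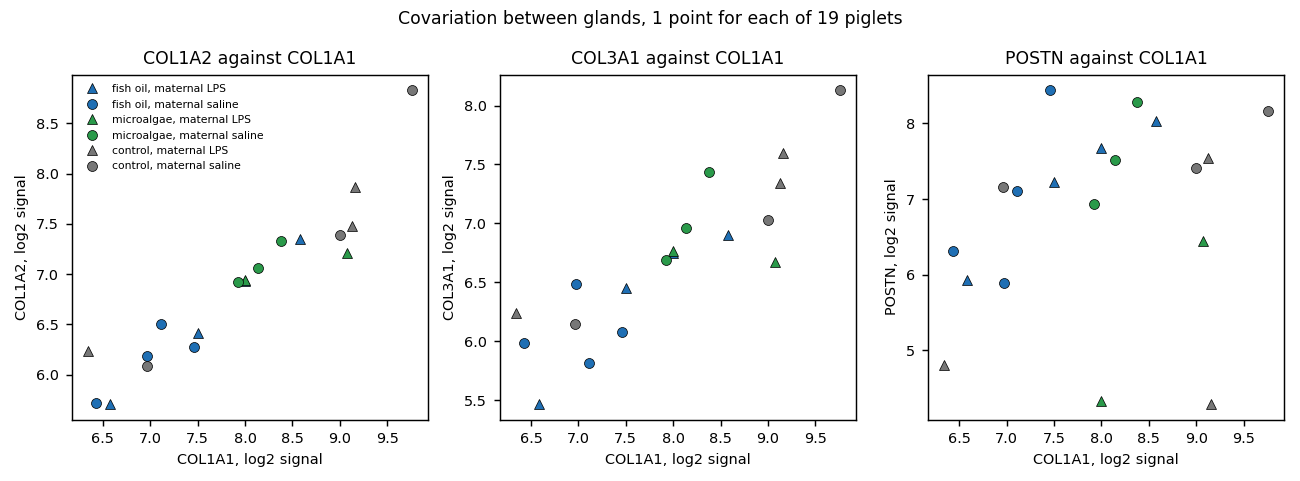
Log2 signals of COL1A2, COL3A1 and POSTN (vertical axes) against COL1A1 (horizontal axis) in 19 piglets, with colour for the sow's diet and shape for her challenge. COL1A2 and COL3A1 follow COL1A1 (r = 0.94 and 0.87), while in the POSTN panel (r = 0.27) 3 maternal LPS glands lie below 5.

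Averaged over the 6 genes without POSTN, each taken relative to its mean over 19 glands, the glands could be placed on 1 scale. Control piglet 8 was highest at 1.24 log2, followed by control piglet 17 at 0.90 and microalgae piglet 22 and control piglet 16 at 0.62. At the low end were fish oil piglets 9 (-1.02) and 24 (-0.82) and control piglet 21 (-0.63). Fish oil offspring with maternal saline lay between -1.02 and -0.52, and those with maternal LPS between -0.82 and 0.18. Microalgae offspring lay between -0.07 and 0.62. Control offspring covered nearly the whole range, -0.63 to 1.24. The array interquartile range had r = 0.21 with this mean, and 0.48 on deviations from the group means. Its part in the covariation was not tested.

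**Figure D4:**
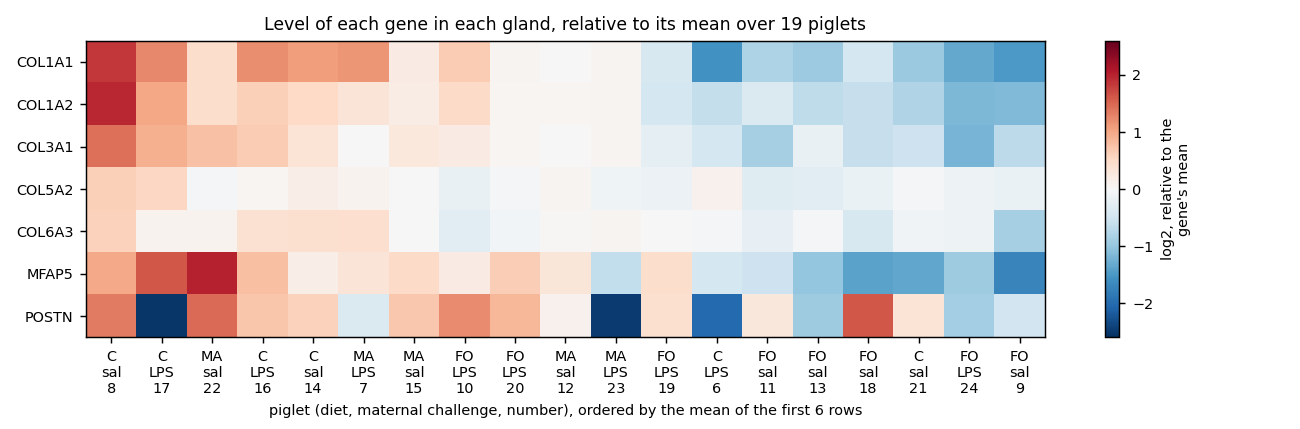
Level of each gene (rows) in each of 19 glands (columns, labelled by diet, maternal challenge and piglet number, with sal for saline), as log2 relative to the gene's mean, in colour. Glands are ordered by the mean of the first 6 rows, from 1.24 in control piglet 8 to -1.02 in fish oil piglet 9, and the POSTN row breaks the order at piglets 17, 23, 6 and 18.

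Other matrix genes were examined as lists, each described by its counts and its median beside those over all probe sets tested, where 49.6% of differences between fish oil and control were below 0. No member of any list passed the adjusted threshold in any of the 6 comparisons. Over all probe sets tested, 1.29% were lower in fish oil than in control offspring at an unadjusted p under 0.05. Of 25 proteoglycans and matricellular proteins measured, 20 were lower in fish oil than in control offspring (median -0.27 log2), and 4 of them at that level. These were DPT, which binds decorin and promotes fibril assembly (4.20 in fish oil and 4.82 in control offspring, -0.63 ± 0.256), THBS1, an activator of latent TGF-beta (8.41 and 8.94, -0.53 ± 0.209), and the CCN family proteins NOV (-0.34 ± 0.15) and CYR61 (-0.33 ± 0.148). Of the other 24 collagen chains measured, 17 were lower, but with a median of -0.09, a lowest value of -0.30 and 0 at an unadjusted p under 0.05. In the list of collagen modifying, exporting and cross-linking enzymes 12 of 21 were lower (median -0.05), again with 0 at that level.

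Matrix breakdown genes and their inhibitors were lower in 16 of 22 cases (median -0.07), and the 1 at an unadjusted p under 0.05 was TIMP1, an inhibitor of matrix metalloproteinases. TIMP1 averaged 9.11 log2 in fish oil and 9.49 in control offspring, a difference of -0.38 ± 0.176. Its interactions with maternal LPS were -1.08 ± 0.352 for fish oil and -1.16 ± 0.399 for microalgae, both at an unadjusted p under 0.05. In these interactions 2.64% and 5.41% of all probe sets tested were at that level in either direction. Elastic fibre and microfibril genes were lower in 7 of 12 cases (median -0.05). Collagen receptors were lower in 5 of 10 (median -0.01), and genes of TGF-beta signalling, the main inducer of collagen transcription, in 5 of 14 (median 0.02). None of these 3 lists had a member at an unadjusted p under 0.05 in this comparison. ITGA11, the collagen-binding integrin chain of fibroblasts, averaged 3.69 in fish oil and 4.02 in microalgae offspring (-0.33 ± 0.103), and HAPLN3, a hyaluronan link protein, 3.60 and 4.11 (-0.51 ± 0.169). Both were lower at an unadjusted p under 0.05, as 1.3% of all probe sets tested were between fish oil and microalgae. Control offspring averaged 3.76 for ITGA11 and 3.65 for HAPLN3, nearer to fish oil than to microalgae offspring. The fibroblast marker CD34 was higher in fish oil than in microalgae offspring at that level (0.47 ± 0.107). So were TEK (endothelium, 0.35), PPARG (adipocyte, 0.39), MRC1 and MS4A7 (macrophage, 0.57 and 0.46). CARTPT, of the medulla list, was lower (-1.53 ± 0.673). In either direction, 2.85% of all probe sets tested were at that level.

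After maternal LPS, single genes of these lists had small differences in both directions. PLOD2, a lysyl hydroxylase of collagen, averaged 7.11 log2 after LPS and 7.59 after saline (-0.49 ± 0.184). The basement membrane chain COL4A1 was at 0.19 ± 0.0736, MFAP2, a microfibril protein, at 0.30 ± 0.139, and WISP2, a CCN family protein, at 0.22 ± 0.0888. P4HA3, a prolyl hydroxylase subunit, was at 0.30 ± 0.12, with group means down to 2.98, under the filter level. Of 14 TGF-beta signalling genes, 7 were higher after maternal LPS and 7 lower (median -0.0055). SMAD7 (0.30 ± 0.0999) and SMAD6 (0.26 ± 0.0878), both inhibitors within the TGF-beta family pathways, and the receptor ACVRL1 (0.27 ± 0.102) were higher at an unadjusted p under 0.05, as 3.37% of all probe sets tested were. Of 26 fibroblast and capsule markers, 14 were higher after maternal LPS and 12 lower (median 0.0058). Among them IGF1 (-0.26 ± 0.0878) and PRRX1 (-0.52 ± 0.244), a growth factor and a mesenchymal transcription factor, were lower at that level. Of all probe sets tested, 3.59% were lower at that level. The single genes named here came from lists with members in both directions. The lowest adjusted p among these single genes was 0.6.

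Markers of the cells that a whole gland can hold are given beside the fish oil difference. Fibroblast and capsule markers were lower in 18 of 26 cases (median -0.07), with GSN (-0.46 ± 0.177), DPT and TWIST1 (-0.26 ± 0.103) at an unadjusted p under 0.05. Their mean level ran from 4.55 to 5.38 log2 in fish oil offspring with maternal LPS and 4.57 to 5.08 with saline, against 4.65 to 5.44 and 4.79 to 5.32 in control offspring. Smooth muscle and pericyte markers were lower in 7 of 10 cases (median -0.235), with CNN1, a contractile protein, at -0.45 ± 0.213. Over all probe sets tested, 1.29% were lower in fish oil than in control offspring at an unadjusted p under 0.05. Macrophage markers were higher in 13 of 14 cases (median 0.16), and their mean level was 5.0 to 5.44 and 4.96 to 5.76 in fish oil offspring, against 5.26 to 5.36 and 4.81 to 5.10 in control offspring. That difference varied with the maternal challenge: the macrophage level averaged 5.19 in fish oil and 5.31 in control offspring after LPS, and 5.38 in fish oil and 4.92 in control offspring after saline. All 14 macrophage markers had a negative interaction of fish oil with maternal LPS (median -0.52), where 50.3% of all probe sets tested were below 0. The interaction of microalgae with maternal LPS was negative for 12 of 14 (median -0.645), where 48% of all probe sets tested were. Both interactions are taken against the same control piglets, and 0 of these markers passed the adjusted threshold in either. Lymphocyte markers were higher in 11 of 14 (median 0.20), with NKG7 at 0.37 ± 0.111 and CD2 at 0.54 ± 0.23, where 1.39% of all probe sets tested were higher at an unadjusted p under 0.05. Adrenal cortex genes were higher in 6 of 7 (median 0.14), with CYP21A2 at 0.30 ± 0.119, medulla genes in 5 of 13 (median -0.10) and endothelial genes in 7 of 11 (median 0.09). The part of these markers in the collagen differences was not tested.

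Over the 19 glands, the mean of the 6 collagen and MFAP5 values went with proteoglycans (r = 0.85), fibroblast markers (r = 0.82), elastic fibre genes (r = 0.69), matrix breakdown genes (r = 0.69), smooth muscle markers (r = 0.63) and collagen modification genes (r = 0.62). The proteoglycan and fibroblast lists share DPT, DCN and LUM, so their correlations are not separate observations. With the other collagen chains r was 0.15. Correlations with other cell types were 0.28 for cortex, -0.09 for medulla, -0.28 for endothelium, -0.23 for macrophage and -0.33 for lymphocyte markers. These are descriptions over glands that share 1 array each, with no test.

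The single genes most like the 7 were sought among 9985 genes by the mean of their Pearson correlations with the 7, on deviations from the 6 group means over 19 piglets. The median gene had a mean r of 0.02. FBLN1, a fibulin of elastic fibres and basement membranes, was highest with a mean r of 0.70, made up of 0.90 with COL1A1, 0.91 with COL1A2, 0.82 with COL3A1, 0.87 with MFAP5, 0.58 with COL5A2, 0.44 with POSTN and 0.40 with COL6A3. The other 11 of the top 12 included IGFBP6, a binding protein of insulin-like growth factors (0.68), MMP2, a gelatinase (0.67), ASPN, a small leucine-rich proteoglycan (0.67), SERPINF1 (0.67), SFRP1, a secreted WNT antagonist (0.67), FN1, fibronectin (0.66), HTRA1, a secreted serine protease (0.66), and COL14A1, a fibril-associated collagen (0.66). SNX19 (0.70), SP9 (0.69) and ISG20L2 (0.67) completed the 12. At the other end were CITED4 (-0.69), PANX2 and TMEM255A (both -0.66) and KCNT1 (-0.65). POSTN was the weakest or next weakest partner of these 12 genes except SERPINF1 (0.72). The genes most like POSTN alone, named after their values were seen, were STRN4 (r = 0.81), UBAP1 (0.76) and TGFBI (0.75), a matrix protein of the same family as periostin.

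By lists, the median of this mean r was 0.43 for 25 proteoglycans and matricellular proteins, 0.35 for smooth muscle, 0.32 for fibroblast markers and 0.29 for elastic fibre genes. It was 0.09 for collagen modification genes, -0.09 for the other collagen chains, -0.09 for endothelium, -0.16 for medulla and -0.26 for cortex. Among the other collagens COL14A1 was highest (0.66) and COL11A2 lowest (-0.55).

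**Figure D5:**
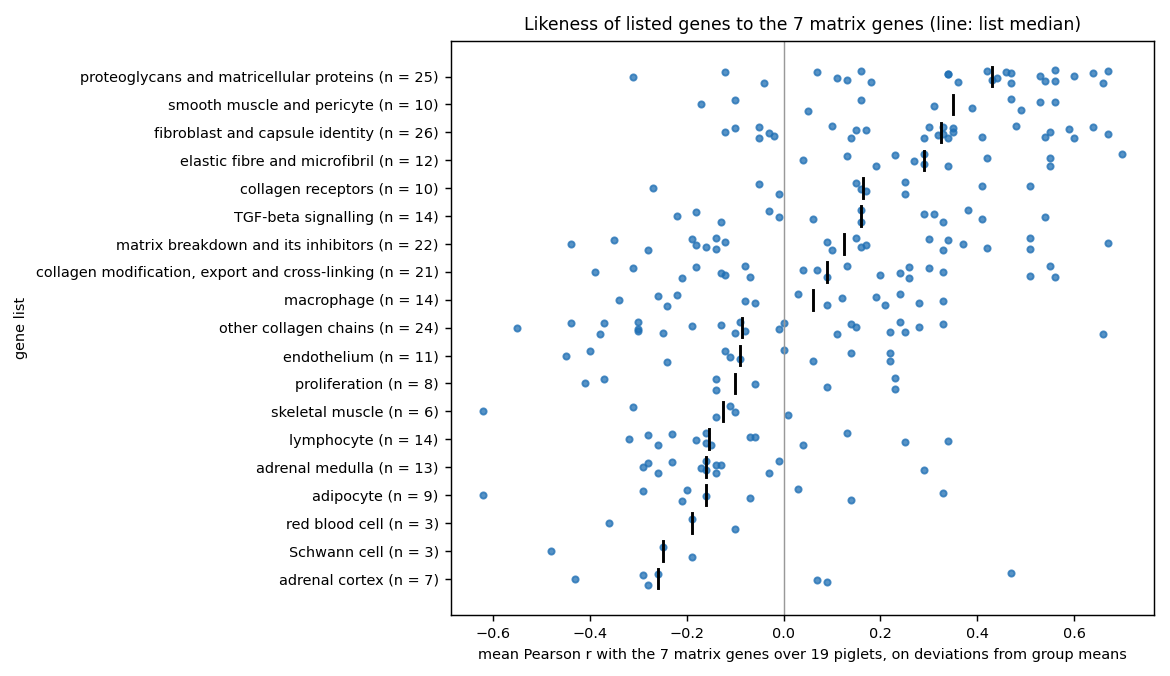
Mean Pearson r with the 7 genes (horizontal axis, over 19 piglets, on deviations from group means) for every gene of 19 lists (vertical axis, with the number of genes measured). Points are genes and black lines are list medians, which run from 0.43 for proteoglycans and matricellular proteins to -0.26 for adrenal cortex.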

How the data were processed

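Adrenal RNA of 19 piglets was hybridised to Affymetrix arrays after WT PLUS labelling, per the labels' protocols. The deposited values are log2 signals, 1 column a piglet, and Transcriptome Analysis Console 4.0 was used, per the submitters' processing notes. Summarization and normalization were not given in the sources used here, base 2 was inferred from the range (0.263 to 13.5), and the values were used as deposited. Of 27558 probe sets, 13157 have 1 gene symbol, 523 several and 13878 none. Array control probe sets were not identified and stayed in.

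Probe sets in the lowest 25% by mean over all piglets, under 3.23 log2, were left out (6890). All 10 probe sets of the 7 genes passed, and 20668 were tested. A limma 3.58.1 model (R 4.3.3) with 1 mean for each of 6 groups, 13 residual degrees of freedom and an intensity trend gave all differences. Its p-values are two-sided and were adjusted by the Benjamini-Hochberg method over all 20668, with a threshold of 0.05. Diet differences are means over both maternal challenges and share the control piglets. The model was also run on simulated data with independent noise for each probe set, without the covariation between genes described above. No result given here rests on that run.

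Correlations used Pearson's r and Spearman's rho with 100000 permutations, adjusted over 21 pairs (Python 3.11.15, scipy 1.17.1). Where a gene has several probe sets, the one with the highest mean stands for it in lists and correlations. Named genes are the 7, up to 4 genes a list at an unadjusted p under 0.05, and the 12 most and 4 least like the 7. The 7 genes and all lists were chosen with earlier results of these data known. Piglet numbers do not repeat between groups. No batch was labelled.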

Additional observations from a re-analysis of the deposited data

Results flagged for a closer look

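Of 20 combinations of a probe set and a fish oil group, 1 held a piglet far from the others of its group by Dixon's test. COL6A3 probe set 15241918 read 4.10 log2 in piglet 11, against 4.49, 4.55 and 4.52 in the other 3 fish oil piglets with maternal saline. The other 2 COL6A3 probe sets read 4.80 and 4.74 in the same piglet, within the range of that group. Groups of under 4 piglets were not tested in this way, which leaves the 2 fish oil groups, and chance marks about 1 in 20 of such groups.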

How the results depend on the processing

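The call counts depended on the setting for maternal LPS. There the count of 2 became 0 with no filter, quantile normalization, the array interquartile range as covariate, the additive model or without both piglets 6 and 24, and 9 with array weights, and ran from 0 to 12 (without piglet 7) when 1 piglet was left out. It was 0 without 13 of the 19 piglets. The other 5 comparisons had 0 calls in limma under every alternative and without any single piglet. No probe set of the 7 genes was called under any of them. The fish oil difference from control kept its sign for all 10 probe sets throughout. With the lowest 50% of probe sets left out, MFAP5 was not tested. The additive model gives no interaction. The number of piglets, 2 to 4 a group, limits the precision.

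Of 1654 alternative values of single probe sets, 94 changed sign. None of these values passed the adjusted threshold, and the cause was not tested. With quantile normalization these were for maternal LPS COL3A1 at 0.013 and COL5A2 at -0.012, and for the microalgae interaction COL5A2 at -0.084. With median centring these were for maternal LPS COL1A1 15208156 at -0.0015, COL5A2 at -0.017 and COL6A3 15241906 at -0.0085, and for the microalgae interaction COL5A2 at -0.074. With array weights these were for maternal LPS COL3A1 at 0.17, and for microalgae against control MFAP5 at -0.12, and for the fish oil interaction COL5A2 at -0.0030, and for the microalgae interaction COL1A2 at -0.25, COL5A2 at -0.12 and COL6A3 15241906 at -0.034. With the array interquartile range as covariate these were for maternal LPS COL3A1 at 0.16, and for the microalgae interaction POSTN at 0.035. With the additive model these were for maternal LPS COL3A1 at 0.031, and for microalgae against control POSTN at 0.033. With leaving out both piglets 6 and 24 these were for maternal LPS COL3A1 at 0.22, and for microalgae against control COL6A3 15241918 at -0.091 and MFAP5 at -0.18, and for the fish oil interaction COL6A3 15241918 at -0.0037, and for the microalgae interaction COL1A1 15212125 at -0.19, COL1A1 15208156 at -0.071, COL1A2 at -0.27, COL5A2 at -0.050 and COL6A3 15241906 at -0.056. When 1 piglet was left out, signs changed for the fish oil interaction COL3A1 (-0.17 to 0.82), COL6A3 15241918 (-0.17 to 0.44), MFAP5 (-0.0064 to 1.19), COL1A2 (-0.032 to 1.34), COL5A2 (-0.060 to 0.28) and COL6A3 15241906 (-0.10 to 0.71). They also did so for the microalgae interaction COL1A1 15212125 (-0.19 to 1.55), COL1A1 15208156 (-0.086 to 1.08), COL1A2 (-0.49 to 0.88), COL5A2 (-0.17 to 0.16), COL6A3 15241906 (-0.28 to 0.53), POSTN (-1.21 to 0.90) and COL3A1 (-0.78 to 0.21). They also did so for maternal LPS COL3A1 (-0.18 to 0.15), COL5A2 (-0.023 to 0.089), COL6A3 15241906 (-0.10 to 0.17), COL1A1 15208156 (-0.17 to 0.22), COL1A2 (-0.17 to 0.29) and COL1A1 15212125 (-0.036 to 0.54). They also did so for microalgae against control COL6A3 15241918 (-0.091 to 0.22), MFAP5 (-0.22 to 0.36), COL1A1 15212125 (-0.52 to 0.25), COL1A1 15208156 (-0.55 to 0.035), COL1A2 (-0.56 to 0.12), COL3A1 (-0.44 to 0.051), POSTN (-0.60 to 0.45) and COL6A3 15241914 (-0.19 to 0.0077).

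Correlations among the 6 genes without POSTN kept their sign in all settings. For POSTN, r with COL5A2 was 0.33 over the 16 glands above 5 log2, and without the 2 farthest piglets r was -0.03 with COL3A1 and -0.17 with COL6A3. When 1 piglet was left out, r ran from -0.37 to 0.18 with COL5A2 and from -0.07 to 0.16 with COL6A3. The median difference of the 7 genes between fish oil and control was -0.69 log2 over all their probe sets. Without piglets 6 and 24 the median differences after maternal LPS were 0.22 for the 7 genes and 0.14 for proteoglycans, and those between fish oil and control were -0.12 for smooth muscle and 0.034 for medulla markers. No paired analysis was possible because piglet numbers do not repeat between groups.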
